A study of Mus musculus with 6 samples.

Results

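The platelet-derived growth factor (PDGF) genes of the mouse were examined in healing flexor digitorum longus (FDL) tendons, as the 4 ligand genes *Pdgfa*, *Pdgfb*, *Pdgfc* and *Pdgfd* and the 2 receptor genes *Pdgfra* and *Pdgfrb*. They were chosen by symbol from 53819 listed genes, and all 6 were found and passed the filter on low counts, as did 17496 genes in all. RNA was sequenced from FDL tendons of 3 DTRScxLin mice (Scx-Cre+; DTR F/+) and 3 wildtype littermates (WT; Scx-Cre-; DTR F/+), with 1 tendon per library, at D28 after transection and repair of the tendon at 10 to 12 weeks of age. Mice of both genotypes carried the diphtheria toxin receptor behind a STOP cassette at Rosa and received 5 daily injections of 100 ng diphtheria toxin (DT) from D14 to D18. The cassette is removed only where *Scx-Cre* has been active, so DT kills cells of the whole Scleraxis lineage, present and past expressers alike, in DTRScxLin mice. Depletion was not measured by a reporter in these tendons, and per the sample titles D28 is counted from depletion, but per the methods from surgery. The comparison of DTRScxLin with WT asks how RNA in the healing tendon differed at D28.

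PDGFs are dimeric growth factors that draw fibroblasts and perivascular cells into wounds and make them divide. PDGF-A and PDGF-B are cut inside the cell by furin-like convertases, whereas PDGF-C and PDGF-D are secreted with a CUB domain that proteases such as tissue plasminogen activator (*Plat*, for PDGF-C) and urokinase (*Plau*, for PDGF-D) remove outside it. The receptor tyrosine kinase PDGFRα binds PDGF-A, -B and -C and marks fibroblasts and mesenchymal progenitors, and PDGFRβ binds PDGF-B and -D and marks pericytes and many fibroblasts. Endothelial cells and platelets are known sources of PDGF-B.

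The total count was 45184255, 47570157 and 44104578 in WT replicates 1, 2 and 3 against 47125566, 48854310 and 42744138 in DTRScxLin. The PDGF genes had between 1077 and 17030 raw counts per library, at which counting error alone is at most 3.05% of a value, so that other differences between libraries set the precision. Animal, dissection and library preparation cannot be told apart as sources of these differences. The markers of the labelled tissue were present. All 10 genes of a tendon list passed the filter, *Scx* had normalized counts of 2202, 2703 and 3064 in WT against 3476, 3407 and 3532 in DTRScxLin, and *Tnmd*, a membrane protein of tenocytes, had 50514, 58616 and 76043 in WT against 60362, 92219 and 76001 in DTRScxLin. Normalized counts here are TMM values scaled to the mean library size, and where 3 values are given per group they are replicates 1, 2 and 3 in that order. *Scx*, whose lineage had been targeted, had more normalized counts in each DTRScxLin library than in each WT library, a difference that did not pass the adjusted test (log2 fold change 0.39, standard error, SE, 0.12, adjusted p = 0.371 by edgeR's quasi-likelihood test).

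Some libraries stood apart. The 18 genes of a skeletal muscle list took up 2.42%, 2.13% and 1.73% of the WT libraries, but 0.295%, 2.15% and 0.560% of the DTRScxLin libraries, and its gene with the most counts, *Myh1*, had normalized counts of 176672, 151025 and 123775 in WT against 16786, 134389 and 37633 in DTRScxLin. The 12 genes of a keratinocyte list took up 0.468% and 0.320% of WT replicates 1 and 2 and at most 0.0439% in the other libraries, with *Krt10* at 65177 and 47500 normalized counts in those replicates and between 174 and 3470 elsewhere. WT replicate 2 and DTRScxLin replicates 2 and 3 had 46425, 51491 and 55574 normalized counts of *Xist* and none of the Y-linked *Ddx3y*. The other libraries, WT replicates 1 and 3 and DTRScxLin replicate 1, had at most 4 of *Xist* and between 3473 and 5134 of *Ddx3y*, so the DTRScxLin group held 1 male and the WT group 2.

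The PDGF system was well expressed in both groups and none of its 6 genes passed the test between them. By the adjusted p of edgeR's quasi-likelihood test, 0 of the 6 and 0 of all 17496 genes were called at a threshold of 0.05 (background 0%). At an unadjusted p under 0.05 it again gave 0 of the 6, where 11.0% of all genes passed. DESeq2 called 0 of the 6 against a background of 2.65% of all genes (1.12% of all genes higher and 1.53% lower). The fitted fold changes ran from 0.859 (*Pdgfb*) to 1.18 (*Pdgfd*), and no 95% interval of a fold change reached below 0.706 or above 1.42.

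For the receptors, the group means lay close together. *Pdgfra* had normalized counts of 15463, 13757 and 13723 in WT against 17551, 13555 and 12811 in DTRScxLin. DTRScxLin held both the highest and the lowest library, with WT in between. The means were 14315 ± 995 in WT and 14639 ± 2549 in DTRScxLin (SD, n = 3 each), a log2 fold change of 0.03 (SE 0.14, adjusted p = 0.951 by edgeR's quasi-likelihood test) with a 95% interval of the fold change from 0.816 to 1.28. In bulk RNA, fewer cells that express a receptor and less receptor RNA per cell cannot be told apart.

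*Pdgfrb* had normalized counts of 11660, 11763 and 12074 in WT against 14258, 9611 and 12444 in DTRScxLin. The WT libraries lay close together and the DTRScxLin libraries on both sides of them, so that the coefficient of variation was 1.82% in WT and 19.4% in DTRScxLin, a difference in spread that was not tested. The log2 fold change was 0.03 (SE 0.15, adjusted p = 0.952 by the same test in edgeR), and the 95% interval of the fold change ran from 0.809 to 1.29. Without DTRScxLin replicate 1, which had the most counts of both receptors, the log2 fold changes were -0.12 for *Pdgfra* and -0.11 for *Pdgfrb*, and without DTRScxLin replicate 2 they were 0.09 and 0.18, none of them called.

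**Figure D1:**
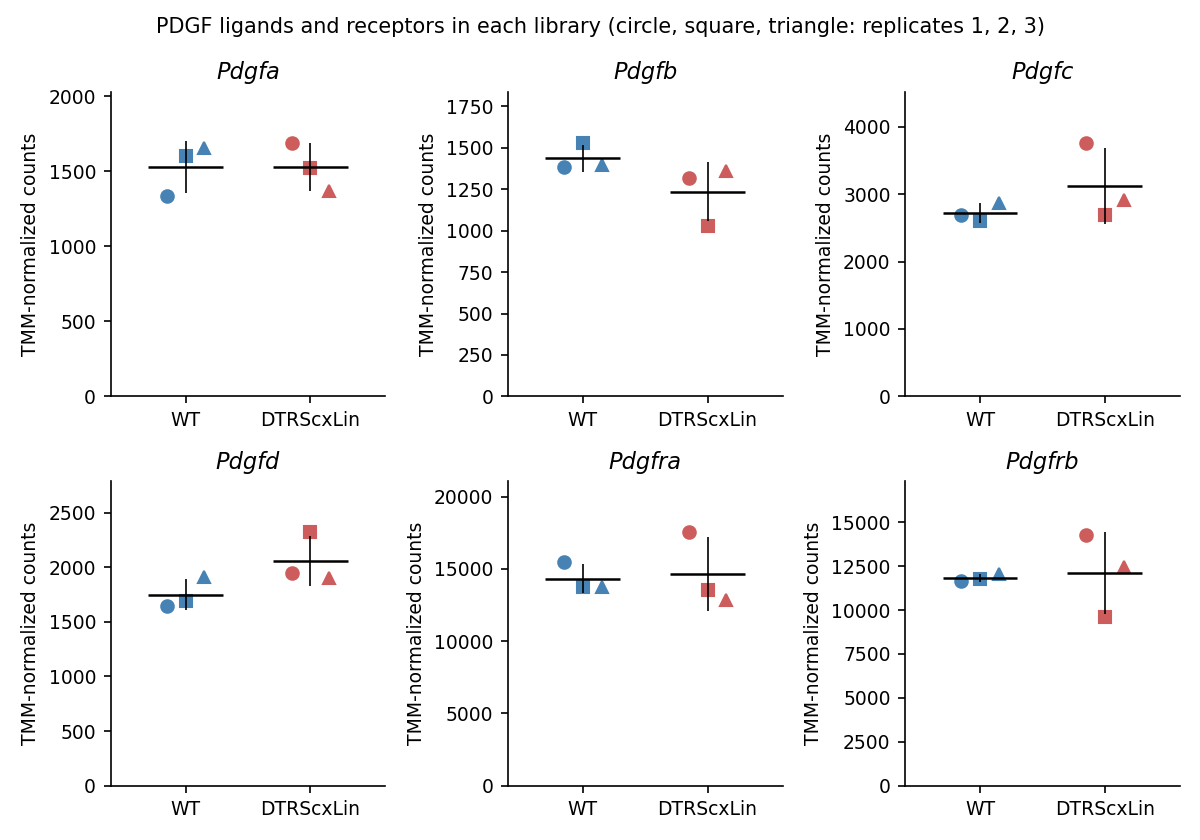
TMM-normalized counts (vertical axes, from 0) of the 6 PDGF genes in 3 WT and 3 DTRScxLin libraries, with points for libraries, horizontal bars for group means and vertical bars for 1 SD. *Pdgfb* has no overlap between the groups (DTRScxLin at most 1361, WT at least 1383), and DTRScxLin replicate 1 is the highest library for *Pdgfa*, *Pdgfc*, *Pdgfra* and *Pdgfrb*.

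Among the ligands, *Pdgfb*, which recruits pericytes to vessels, was the gene whose groups did not overlap. It had normalized counts of 1383, 1531 and 1399 in WT against 1316, 1030 and 1361 in DTRScxLin, so each DTRScxLin library was below each WT library, by a small margin between the nearest. The log2 fold change was -0.22 (SE 0.12, unadjusted p = 0.112, adjusted p = 0.522 by edgeR's quasi-likelihood test), from 1438 ± 81.1 in WT to 1236 ± 179 in DTRScxLin (SD, n = 3 each). A count of 1 of the 6 without overlap is near the background, since 16.8% of all genes had no overlap in either direction and 7.85% had none with DTRScxLin lower. The low value of DTRScxLin replicate 2 carried much of the difference, and without that library the log2 fold change was -0.10.

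*Pdgfd*, the other ligand of PDGFRβ, had the highest fitted fold change and the smallest p of the PDGF genes. It had normalized counts of 1644, 1691 and 1911 in WT against 1952, 2324 and 1902 in DTRScxLin. DTRScxLin replicate 3 was just below WT replicate 3, and DTRScxLin replicate 2 was the highest. The means were 1749 ± 143 and 2059 ± 230 (SD, n = 3 each), with a log2 fold change of 0.24 (SE 0.11, unadjusted p = 0.0630, adjusted p = 0.473 by edgeR's quasi-likelihood test) and a 95% interval of the fold change from 0.989 to 1.40. Without DTRScxLin replicate 2 the log2 fold change was 0.14.

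*Pdgfc*, a ligand of PDGFRα, had normalized counts of 2684, 2596 and 2876 in WT against 3763, 2686 and 2915 in DTRScxLin. DTRScxLin replicate 2 was within the WT range, DTRScxLin replicate 3 was slightly above it and DTRScxLin replicate 1 stood well above. The log2 fold change of 0.20 (SE 0.13, adjusted p = 0.587 by the same test in edgeR) rested on that library and was 0.04 without it.

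*Pdgfa*, which also signals through PDGFRα, had normalized counts of 1334, 1600 and 1657 in WT against 1691, 1525 and 1371 in DTRScxLin. The groups overlapped over nearly their whole range and their means were 1530 ± 172 and 1529 ± 160 (SD, n = 3 each). The 95% interval of the fold change was 0.825 to 1.21 (adjusted p = 0.998 by edgeR's quasi-likelihood test).

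**Figure D2:**
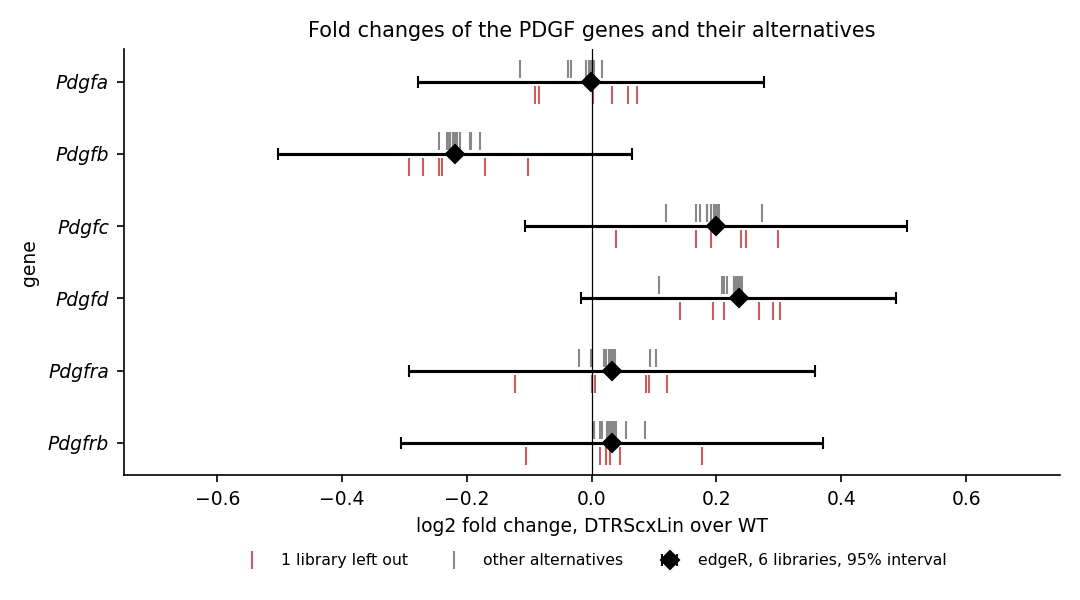
Log2 fold change of DTRScxLin over WT (horizontal axis) for each PDGF gene (vertical axis), with diamonds and bars for edgeR's estimate and its 95% interval over 6 libraries, red ticks for fits with 1 library left out and grey ticks for the other alternatives. All 6 intervals include 0, *Pdgfb* is below 0 and *Pdgfc* and *Pdgfd* are above 0 in each alternative drawn, and *Pdgfa*, *Pdgfra* and *Pdgfrb* have ticks on both sides.

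Within each sex, as read from *Xist* and *Ddx3y*, 1 group was left with a single library, and the values within a sex are given as a description with no test. *Pdgfb* was lower and *Pdgfc* and *Pdgfd* were higher in DTRScxLin than in WT in both sexes, with log2 ratios of group means of -0.08 in males and -0.36 in females for *Pdgfb*, 0.44 and 0.11 for *Pdgfc*, and 0.13 and 0.32 for *Pdgfd*. For *Pdgfb* the direction in each sex was fixed beforehand, since each DTRScxLin library was below each WT library. With sex as a second term, *Pdgfc* had a log2 fold change of 0.27 with an unadjusted p = 0.0370 and an adjusted p = 0.365 in edgeR. It was 1 of the 6 PDGF genes at an unadjusted p under 0.05 in that fit, as were 2214 of all 17496 genes, and the other 5 had unadjusted p-values from 0.110 to 0.902 in edgeR.

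Levels of different genes were compared as library-size scaled counts (CPM) per kb of merged exons. By mean over the 6 libraries the order was *Pdgfrb* (47.6 CPM per kb), *Pdgfra* (31.5), *Pdgfd* (13.2), *Pdgfc* (12.5), *Pdgfa* (10.7) and *Pdgfb* (7.00). *Pdgfrb* was thus more highly expressed per length than 95.2% of the tested genes with a known length, and *Pdgfb* than 65.8%. Both receptors were above each ligand in 6 of 6 libraries, and *Pdgfa* was above *Pdgfb* in 6 of 6. *Pdgfd* was above *Pdgfc* in 4 of 6 libraries and *Pdgfc* above *Pdgfa* in 5 of 6, so the order of these neighbours was not the same in each library. The order also depends on which length is used. With the longest annotated transcript in place of merged exons, *Pdgfra* is shortened from 10024 to 6834 bases. *Pdgfrb* was then above *Pdgfra* in 4 of 6 libraries and *Pdgfd* above *Pdgfc* in 0 of 6. By mean, *Pdgfd* (13.2 CPM per kb) also fell below *Pdgfa* (16.2), while both receptors stayed above the ligands.

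**Figure D3:**
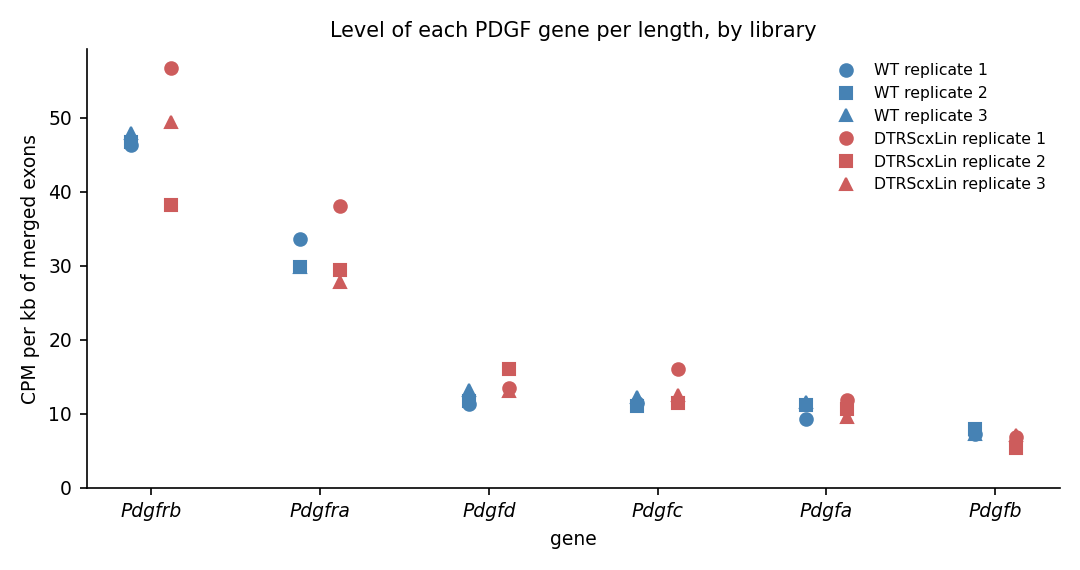
CPM per kb of merged exons (vertical axis, from 0) of each PDGF gene (horizontal axis, ordered by mean) in each library, WT in blue and DTRScxLin in red. Receptors lie between 27.8 and 56.7 CPM per kb and ligands between 5.39 and 16.1, with the 3 ligands *Pdgfd*, *Pdgfc* and *Pdgfa* overlapping.

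Ratios of raw counts within a library do not depend on how libraries are scaled. They do depend on the lengths of the genes, so they compare libraries and not the levels of different genes. The ratio of *Pdgfra* to *Pdgfrb* counts was 1.33, 1.17 and 1.14 in WT against 1.23, 1.41 and 1.03 in DTRScxLin, so the groups overlapped. Receptor counts were 3.85, 3.44 and 3.29 times the ligand counts in WT and 3.65, 3.06 and 3.35 times in DTRScxLin. The ratio of *Pdgfd* to *Pdgfb* counts, both ligands of PDGFRβ, was 1.19, 1.10 and 1.37 in WT and 1.48, 2.26 and 1.40 in DTRScxLin. Each DTRScxLin library was above each WT library in this ratio, by a small margin in replicate 3 and by most in replicate 2. It was picked for display after its values were seen and is given with no test. *Pdgfb* made up 19.4% ± 1.42 of the ligand counts in WT and 15.6% ± 2.24 in DTRScxLin (SD, n = 3 each), and the groups overlapped only because DTRScxLin replicate 3 was slightly above WT replicate 3. *Pdgfc* had the largest share of these raw counts in each library, from 35.0% to 43.1%. That share is not corrected for length, and per kb of merged exons *Pdgfd* was above *Pdgfc* in 4 of 6 libraries.

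**Figure D4:**
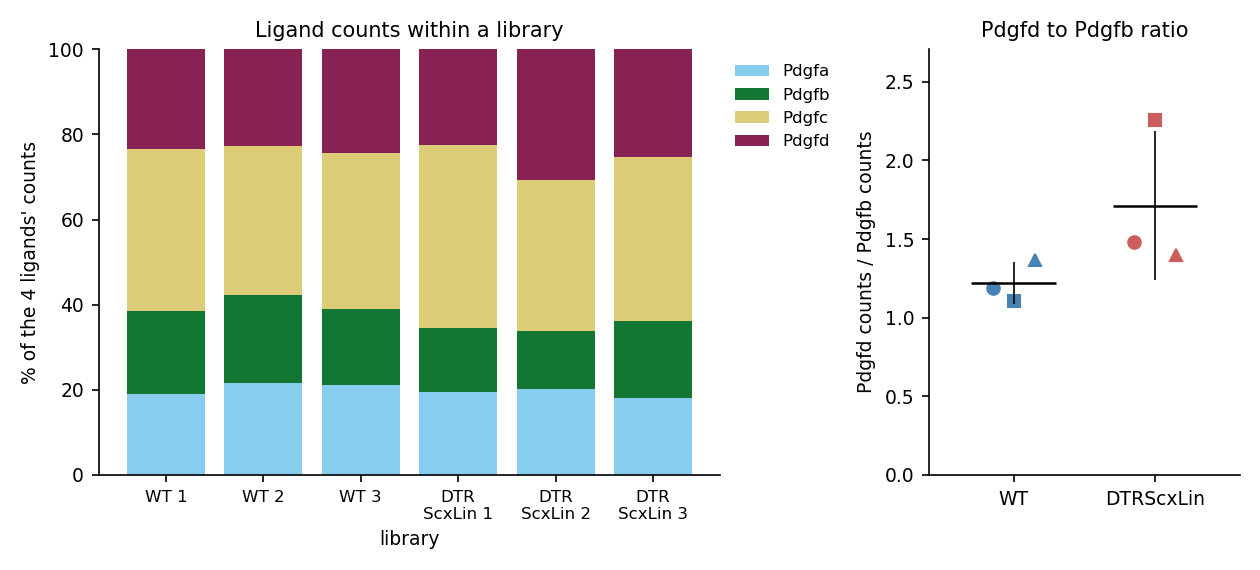
Left, share of each ligand (%) in the summed raw counts of the 4 ligands, 1 bar per library. Right, ratio of *Pdgfd* to *Pdgfb* raw counts (vertical axis, from 0) with points for libraries and bars for the mean and 1 SD, where the DTRScxLin libraries are at 1.40 to 2.26 and the WT libraries at 1.10 to 1.37.

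The proteases that free the ligands came next. The 7 genes of the list (*Furin*, *Pcsk5*, *Pcsk6*, *Pcsk7*, *Plat*, *Plau* and *St14*) had a median log2 fold change near that of all genes, both 0.01, but ran from -1.90 to 0.50, and 0 of the 7 had an unadjusted p under 0.05. *Plat*, with the most counts, had normalized counts of 6894, 5989 and 4184 in WT against 10616, 4385 and 6336 in DTRScxLin, and the groups overlapped. In the list of co-receptors and ligand-binding proteins, 6 of 7 genes passed the filter, 5 were fitted higher, the median log2 fold change was 0.22 and 0 had an unadjusted p under 0.05. Its gene with the most counts was *Sparc*, a matrix protein that binds PDGF-B, with 481963 to 615311 normalized counts in WT and 588374 to 674553 in DTRScxLin, which overlapped.

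Downstream of the receptors, 36 adaptor and effector genes (the PI3-kinase, phospholipase C, Src, Ras, ERK, AKT and STAT branches) had log2 fold changes from -0.41 to 0.28, with a median of 0.04. Of these, 1 was higher and 2 lower at an unadjusted p under 0.05, where the backgrounds are 5.52% and 5.45%, and none was called by edgeR's adjusted p or by DESeq2. *Pik3r2*, a regulatory subunit of PI3-kinase, had normalized counts of 2772, 2866 and 3166 in WT against 3822, 3257 and 3450 in DTRScxLin (log2 fold change 0.26, SE 0.09, adjusted p = 0.421 by edgeR's quasi-likelihood test). *Gab1*, a docking protein, had 2238, 2550 and 2252 in WT against 1937, 1928 and 1911 in DTRScxLin (-0.29, SE 0.08, adjusted p = 0.353 in edgeR), and the transcription factor gene *Stat5b* had 3392, 3282 and 2570 in WT against 2245, 2534 and 2191 in DTRScxLin (-0.41, SE 0.12, adjusted p = 0.354 in edgeR). In all 3 genes the groups did not overlap. Over the list, 5 of 36 were without overlap with DTRScxLin higher and 4 with DTRScxLin lower, next to 8.96% and 7.85% of all genes.

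Among 15 negative regulators of the receptors (phosphatases, ubiquitin ligases, Sprouty and Spred proteins and others), 12 were fitted higher in DTRScxLin and 3 lower, with a median log2 fold change of 0.13 and none called by edgeR's adjusted p or by DESeq2. At an unadjusted p under 0.05, 4 of 15 were higher, against 5.52% of all genes, and 0 were lower. In 6 of 15 each DTRScxLin library was above each WT library, against 8.96% of all genes. *Rasa1*, a GTPase activating protein that switches Ras off at the receptor, had normalized counts of 4791, 4978 and 4837 in WT against 6581, 6221 and 5215 in DTRScxLin (log2 fold change 0.30, SE 0.10, adjusted p = 0.389 by edgeR's quasi-likelihood test). *Ptprj*, a receptor phosphatase, had 2168, 2002 and 1988 in WT against 2615, 2497 and 2311 in DTRScxLin (0.27, SE 0.08). *Spred1*, an inhibitor of the Ras to ERK cascade, had 4910, 4610 and 4958 in WT against 6369, 5768 and 5271 in DTRScxLin (0.27, SE 0.09). The list's median was 0.02 without DTRScxLin replicate 1 and 0.05 without WT replicate 3.

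Of 14 immediate-early genes, which growth factors induce within minutes, 10 were fitted higher, with a median log2 fold change of 0.18, and 2 had an unadjusted p under 0.05, both higher (5.52% of all genes) and both called by DESeq2 (1.12% of all genes). *Egr2*, a zinc finger transcription factor, had normalized counts of 448, 369 and 288 in WT against 581, 679 and 590 in DTRScxLin (log2 fold change 0.74, SE 0.18, adjusted p = 0.300 by edgeR's quasi-likelihood test and 0.0137 by DESeq2). *Ier3*, a stress response gene, had 975, 927 and 1000 in WT against 1622, 1846 and 1100 in DTRScxLin (0.65, SE 0.18, adjusted p = 0.347 in edgeR and 0.0356 in DESeq2). *Egr1*, with the most counts, had 7751, 4477 and 3420 in WT against 7930, 8185 and 7934 in DTRScxLin, without overlap. The list's median was about 0 without DTRScxLin replicate 1 and 0.04 without WT replicate 3.

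Relatives of the PDGF system were mixed. Of the 7 genes of the other class III receptor kinases and their ligands, 5 were fitted lower, with a median log2 fold change of -0.20. The list's mean log2 CPM did not overlap between the groups, at -0.07 to 0.04 in WT and -0.24 to -0.15 in DTRScxLin relative to the WT mean. By single genes, 1 of the 7 had no overlap with DTRScxLin lower, where 7.85% of all genes did. *Kit*, the stem cell factor receptor, had normalized counts of 651, 646 and 504 in WT against 331, 359 and 468 in DTRScxLin (-0.64, SE 0.18, adjusted p = 0.347 by edgeR's quasi-likelihood test and 0.0472 by DESeq2). It was the 1 gene of the 7 lower at an unadjusted p under 0.05, against 5.45% of all genes. DESeq2 called only this 1 of the 7, against 1.53% of all genes called lower. *Csf1r*, with the most counts, had 15200 to 19103 in WT and 14329 to 17096 in DTRScxLin. Of 8 VEGF ligand and receptor genes, 6 were fitted lower, with a median of -0.10, and *Vegfb*, a ligand of VEGF receptor 1, had 1009, 928 and 870 in WT against 723, 692 and 727 in DTRScxLin (-0.39, SE 0.10, adjusted p = 0.307 in edgeR). *Vegfb* was the 1 gene of the 8 lower at an unadjusted p under 0.05 and the 1 without overlap, against 5.45% and 7.85% of all genes. DESeq2 called 0 of the 8. *Kdr*, with the most counts of these, overlapped between the groups, with 2606 to 2889 in WT and 2258 to 3120 in DTRScxLin.

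Markers of the cells that make or receive PDGF were set beside these values. A list of 12 pericyte and mural cell markers, cells that carry PDGFRβ, was fitted lower in 12 of 12 genes, with a median log2 fold change of -0.32. Its mean log2 CPM relative to the WT mean was -0.09, -0.18 and 0.27 in WT against -0.38, -0.37 and -0.40 in DTRScxLin, so the groups did not overlap in this mean. By single genes, 1 of the 12 had no overlap with DTRScxLin lower, near the 7.85% of all genes. In counts it made up 0.263%, 0.241% and 0.323% of WT libraries and 0.194%, 0.221% and 0.216% of DTRScxLin libraries. One gene, *Abcc9*, a subunit of potassium channels of pericytes, had an unadjusted p under 0.05, near the 5.45% of all genes that were lower, with normalized counts of 4488, 4514 and 3914 in WT against 2238, 3359 and 3103 in DTRScxLin (-0.57, SE 0.15, adjusted p = 0.340 by edgeR's quasi-likelihood test and 0.0356 by DESeq2, which called 1.53% of all genes lower). *Rgs5*, with the most counts, overlapped, with 36236 to 52019 in WT and 34671 to 42414 in DTRScxLin. Without *Des*, which skeletal muscle also expresses, the list's median was -0.30 and the groups still did not overlap in the list's mean. The list also holds *Acta2*, which encodes αSMA. The paper found αSMA+ myofibroblasts that expressed *Scx* still present at D28, so the list is not specific to pericytes. Their part in its values was not tested. Without WT replicate 3 the median of the 12 genes was -0.08.

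Of 12 endothelial markers, 10 were fitted lower, with a median log2 fold change of -0.10, 0 had an unadjusted p under 0.05, and the groups overlapped. *Pecam1*, with the most counts, had normalized counts of 8834, 10736 and 11948 in WT against 8701, 9449 and 10163 in DTRScxLin. The 12 macrophage markers had a median of 0.04, with 6 fitted higher and 6 lower, and *Lyz2* had 82000 to 106155 in WT and 92317 to 110367 in DTRScxLin. Of 7 megakaryocyte and platelet markers 3 passed the filter, and *Pf4*, which macrophages may also express, had 3807 to 5051 in WT and 3303 to 4788 in DTRScxLin. Whether shifts in these cell types contributed to the values of *Pdgfb* and *Pdgfrb* was not tested.

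Of 10 markers of *Pdgfra*-positive mesenchymal progenitors, 7 were fitted higher, with a median log2 fold change of 0.24 and 0 at an unadjusted p under 0.05. The list's mean log2 CPM relative to the WT mean was -0.08, -0.15 and 0.23 in WT and -0.08, 0.43 and 0.06 in DTRScxLin replicates 1 to 3, and *Cd34*, with the most counts, had 22221 to 27813 in WT and 24682 to 37189 in DTRScxLin. DTRScxLin replicate 2 was the highest library for this list but not for *Pdgfra*. The 10 tendon markers had a median of 0.31, with 4 higher at an unadjusted p under 0.05 (*Scx*, *Thbs4*, *Kera* and *Col11a1*) against 5.52% of all genes, of which DESeq2 called *Thbs4* against 1.12%. *Thbs4*, a matrix glycoprotein of tendon, had a log2 fold change of 0.65 (SE 0.16, adjusted p = 0.307 by edgeR's quasi-likelihood test), *Kera* one of 0.43 (0.17) and *Col11a1* one of 0.39 (0.14). The other direction was taken by 3 of the 10, named here after their values were seen. *Chad*, a cartilage and tendon matrix protein, had normalized counts of 10902, 12250 and 12154 in WT against 1198, 8100 and 3866 in DTRScxLin, without overlap (log2 fold change -1.42, SE 0.71, adjusted p = 0.514 in edgeR). *Cilp2* had a log2 fold change of -0.40 (0.29) and *Fmod* one of -0.17 (0.17), both with overlap. *Col1a1*, with the most counts, had 454299 to 527597 normalized counts in WT and 434968 to 766705 in DTRScxLin.

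**Figure D5:**
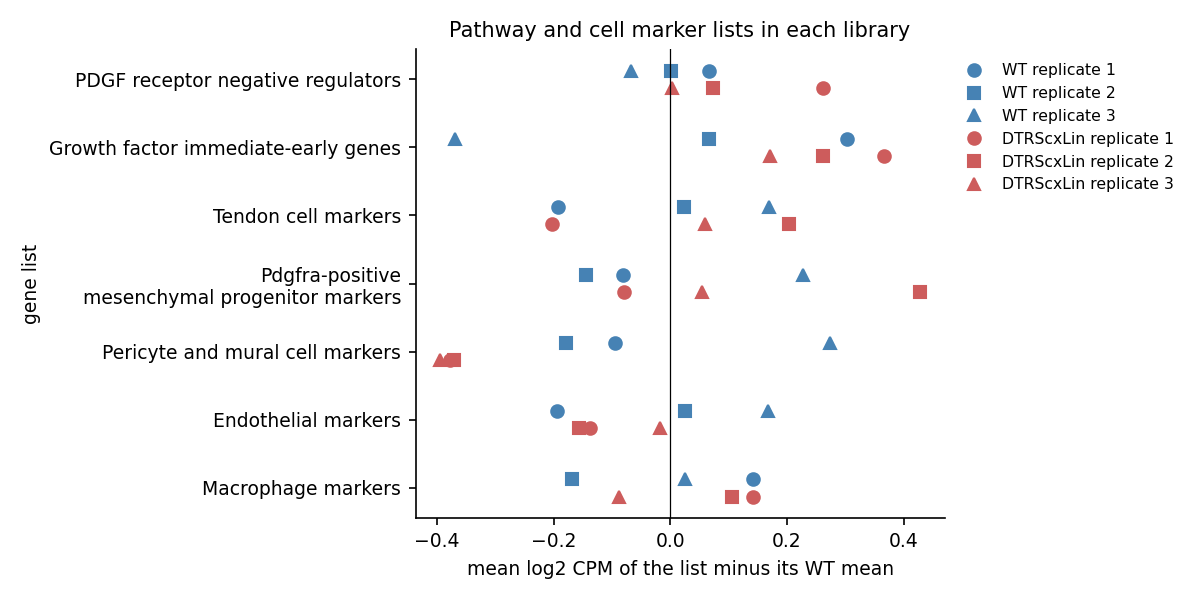
Mean log2 CPM of the genes of each list minus the list's WT mean (horizontal axis) for 7 pathway and cell marker lists (vertical axis), with 1 point per library, WT in blue and DTRScxLin in red. In the pericyte and mural cell list the groups do not overlap, with DTRScxLin at -0.40 to -0.37 and WT at -0.18 to 0.27, as is also true of the class III receptor and adipocyte lists, which are not drawn.

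Markers of other tissues were tallied as well. All 18 muscle genes and all 12 keratinocyte genes were fitted lower in DTRScxLin, with 0 at an unadjusted p under 0.05 in either list and overlap of the lists' mean log2 CPM between the groups. The 8 adipocyte markers were all fitted lower, with a median log2 fold change of -2.33, 6 at an unadjusted p under 0.05 against 5.45% of all genes and 4 called by DESeq2 (*Adipoq*, *Plin1*, *Cidec* and *Cfd*) against 1.53%. The list's mean log2 CPM relative to the WT mean was -0.46 to 0.39 in WT and -2.60 to -1.25 in DTRScxLin, without overlap. *Cfd*, for example, had normalized counts of 335, 752 and 1138 in WT against 83.5, 207 and 94.5 in DTRScxLin, *Adipoq* had 96.4, 187 and 273 against 17.5, 62.2 and 26.7, and *Plin4* had 1325, 2072 and 668 against 213, 496 and 125. *Fabp4*, with the most counts, overlapped, with 4592 to 7715 in WT and 3894 to 6336 in DTRScxLin. With the muscle and keratinocyte genes removed before scaling, the log2 fold changes of the PDGF genes were -0.22 for *Pdgfb*, 0.20 for *Pdgfc* and 0.24 for *Pdgfd*, the same to 2 decimals. That removal does not take out other transcripts of those tissues, and their part in the PDGF values was not tested.

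The genes whose log2 CPM over the 6 libraries was most like that of each PDGF gene were searched among 14408 genes with at least 50 normalized counts on average. The closest by Pearson's r were *Crem* (0.993) for *Pdgfa*, *Cbx2* (0.997) and *Klf2* (0.995) for *Pdgfb*, *Plod1* (0.997) and *Emilin1* (0.996) for *Pdgfc*, *Gnpnat1* (0.998) for *Pdgfd*, *Bag4* (0.994) and *Ccl4* (0.994) for *Pdgfra*, and *Gadd45b* (0.996) for *Pdgfrb*. With 6 points that share libraries and depth, high values are common, and between 11 (*Pdgfa*) and 99 (*Pdgfc*) genes had an r over 0.95, so the likeness is a description of these libraries.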

How the data were processed

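RNA-seq libraries were prepared from 200 ng total RNA of 1 FDL tendon each. The authors cleaned single-end reads with FastP and counted them per gene with featureCounts; aligner, genome build, annotation and strand setting are not given in the sources used here, so no coordinates are printed. The deposited counts are whole numbers without normalization. The deposited normalized counts (a signal) equal these counts divided by 1 size factor per library, and per the labels DESeq2 1.22.1 was used. Columns were matched to samples by their description.

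In R 4.3.3, edgeR 4.0.16 was applied to genes passing filterByExpr, with TMM, a robust quasi-likelihood fit with genotype as the only term, and Benjamini-Hochberg adjustment over 17496 genes at 0.05. Standard errors were derived from the fold change and its F statistic, and 95% intervals use them with the fit's degrees of freedom, unadjusted. Alternatives used limma 3.58.1 and DESeq2 1.42.0. The fits were tested on simulated data, and the outcome is not given here. Merged exon lengths came from GENCODE vM21 and matched 97.8% of tested genes by symbol. Replicate libraries differed by a chi-square of at least 36.6 per degree of freedom, so none was counted as a duplicate; p-values measure the spread between 3 tendons per group.

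Genes named were the PDGF genes, *Scx*, *Tnmd*, *Xist* and *Ddx3y*, each list's gene with the most counts, up to 3 genes per list and direction with the largest fold change at an unadjusted p under 0.05 and at least 50 normalized counts, and for each PDGF gene up to 3 genes of most similar pattern. The genes and lists were chosen with earlier results of these data known. Protein sequences were not used here. One gene that this rule names is not reported here.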

Additional observations from a re-analysis of the deposited data

Results flagged for a closer look

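The fitted difference between DTRScxLin and WT differed in direction between the sexes for *Pdgfa* and *Pdgfra*. In males (WT replicates 1 and 3, DTRScxLin replicate 1) the DTRScxLin library was above both WT libraries for both genes, and in females (WT replicate 2, DTRScxLin replicates 2 and 3) both DTRScxLin libraries were below the WT library. The genotype effect in males minus that in females was 0.32 on the log2 scale for *Pdgfa* (unadjusted p = 0.270) and 0.33 for *Pdgfra* (unadjusted p = 0.203), both with an adjusted p = 0.999 from an interaction term in edgeR's quasi-likelihood test, chosen after the data were seen. Both genes were picked for their opposite signs, and DTRScxLin males and WT females are 1 library each, assumed in the fit to vary like the others, so these p-values say little in either direction. The single male of the DTRScxLin group is replicate 1, so sex and that library cannot be told apart. *Pdgfrb* also had log2 ratios of opposite sign, 0.26 in males and -0.09 in females, with the largest interaction of the 6 PDGF genes (0.36, unadjusted p = 0.247, adjusted p = 0.999 in the same edgeR fit), but its female libraries overlapped. Groups of 3 are too small to test a single library as an outlier.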

How the results depend on the processing

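None of the 6 PDGF genes was called under any of 20 alternatives, of which 19 were planned and 1, leaving out WT replicates 1 and 2 together, was chosen after seeing the data. *Pdgfb*, *Pdgfc* and *Pdgfd* kept their direction in all 20. *Pdgfa*, near 0, changed sign with upper quartile normalization (0.00341), with no filter on low counts (0.00158), with sex as a second term (0.0168) and between libraries left out (-0.0902 to 0.0731). *Pdgfra* changed sign with library sizes only (-0.00101), with quality weights in limma-voom (-0.0207) and between libraries left out (-0.123 to 0.121), and *Pdgfrb* between libraries left out (-0.106 to 0.176). The cause was not tested. With 1 library left out, *Pdgfb* ranged from -0.29 to -0.10, *Pdgfc* from 0.04 to 0.30 and *Pdgfd* from 0.14 to 0.30. Without WT replicates 1 and 2 together, the log2 fold changes were -0.18 for *Pdgfb*, 0.12 for *Pdgfc* and 0.11 for *Pdgfd*. The replicate block gave -0.23 for *Pdgfb*, 0.19 for *Pdgfc* and 0.23 for *Pdgfd*, changed no call among the PDGF genes and called 1 gene of all genes tested. Correlations of same-numbered libraries' deviations from their group means ran from -0.68 to -0.15, with no sign that the numbers pair the samples. Within a group of 3 the deviations sum to 0, so these values cannot exclude a pairing. Over all genes, edgeR called 0, DESeq2 466 with or without shrinkage, edgeR with no filter 83, and edgeR with 1 library left out from 0 to 544, the latter without DTRScxLin replicate 2. Of the other genes named, 19 were refitted under each alternative and kept their direction. The rest, among them *Chad*, *Cilp2*, *Fmod* and *Egr1*, were not refitted. At 3 tendons per group, the spread between libraries, each of 1 tendon, rather than depth limits what can be shown.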
